A study of Arabidopsis thaliana with 32 samples.

Results

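The cytosolic ribosomal protein genes studied here were 60 listed gene identifiers, of 27444 nuclear protein-coding genes of Arabidopsis thaliana. Further genes named as ribosomal proteins lie outside the list and are counted apart below. Unless stated otherwise, ribosomal protein genes here means these 60. They were matched by identifier to 8 deposited lists of sites at which elongating RNA polymerase II (RNAPII) differed between tfiis-1 and Col-0. Of the 60 genes, 45 were in at least 1 list and 15 were in none. All 60 were found in the RefSeq gene table of assembly TAIR10.1. Its names give the subunit for 23 of them, 13 of the large and 10 of the small one, and 0 carry a name that points to an organelle. For the other 37 genes the membership rests on the list of identifiers alone, and they are called here by identifier or by the symbol of the table.

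The genotypes were tfiis-1, a mutant of the elongation factor TFIIS, and the wild type Col-0. Whole seedlings grown in vitro were taken 14 days after stratification, without heat shock (0 min) or after 10 min, 30 min or 3 h of heat shock. Chromatin was precipitated with antibody ab5095 against RNAPII phosphorylated at Ser2 of its C-terminal repeats (S2P), with 3 ChIP libraries and 1 input library for each genotype and time (24 ChIP and 8 input). The authors deposited, per time, 1 list of summits (single base pairs) higher in tfiis-1 and 1 of summits higher in Col-0, each with the gene that holds the summit.

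The lists hold no value per library. The depth is therefore unknown, there is no spread between replicates, and no test between the genotypes could be made here: every call is the authors'. A gene outside a list is a gene without a listed summit, which does not show equal signal. The mutant is represented by 1 line. In whole seedlings, a change in the share of cells and a change in polymerase per cell cannot be told apart. The TFIIS gene had summits in 0 of the 8 lists; since a mutation can leave polymerase over the gene, the genotype labels were not checked by this.

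Ribosomal proteins assemble with ribosomal RNA into the large and the small subunit of the ribosome. In Arabidopsis each is encoded by a small family of similar genes, and these genes are among the most strongly transcribed in growing tissue, with transcription tied to growth signals such as the TOR kinase. TFIIS lets RNAPII that has slid backward cut its transcript and resume. Ser2 phosphorylation marks polymerase in the gene body and typically rises toward the 3' end.

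The 60 ribosomal protein genes were frequent in the tfiis-1-higher lists of all heat shock times and in the Col-0-higher list of 3 h. Without heat shock 5 of the 60 genes (8.33%) were tfiis-1-higher, against 4.90% of all nuclear protein-coding genes. At 10 min 25 genes (41.7%) were tfiis-1-higher, against 10.9% of all. At 30 min the count was 33 (55.0%), against 16.6% of all, and at 3 h it was 31 (51.7%), against 23.7% of all. The count thus grew between 0 min and 30 min and was about level between 30 min and 3 h, while the list of all genes went on growing.

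In the other direction, 0 of the 60 genes were Col-0-higher at 0 min and 0 at 10 min, where 0.113% and 0.251% of all genes were listed. At 30 min 2 genes were Col-0-higher (3.33%, against 3.16% of all), which is the share of the background. At 3 h 20 genes were Col-0-higher (33.3%, against 10.8% of all). These counts describe the lists and were not tested, since the genes are not replicates.

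Ribosomal protein genes are short, and longer genes have more room for summits. The 60 genes ran from 815 to 2593 bp, with a median of 1742.5 bp against 2078 bp for all nuclear protein-coding genes. Among the 14890 nuclear protein-coding genes of that length range the listed shares were lower still: 3.66%, 9.69%, 11.7% and 18.9% in the tfiis-1-higher lists of 0 min, 10 min, 30 min and 3 h, and 9.59% in the Col-0-higher list of 3 h. Against genes that were in at least 1 list the order changed. Of the 45 listed ribosomal protein genes, 55.6% were tfiis-1-higher at 10 min and 73.3% at 30 min, against 32.8% and 49.9% of the 9113 listed genes of any kind. At 3 h the shares were 68.9% and 71.3%, and at 0 min they were 11.1% and 14.8%, so at those times the listed ribosomal protein genes were not above other listed genes. In the Col-0-higher list of 3 h the shares were 44.4% and 32.4%.

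**Figure D1:**
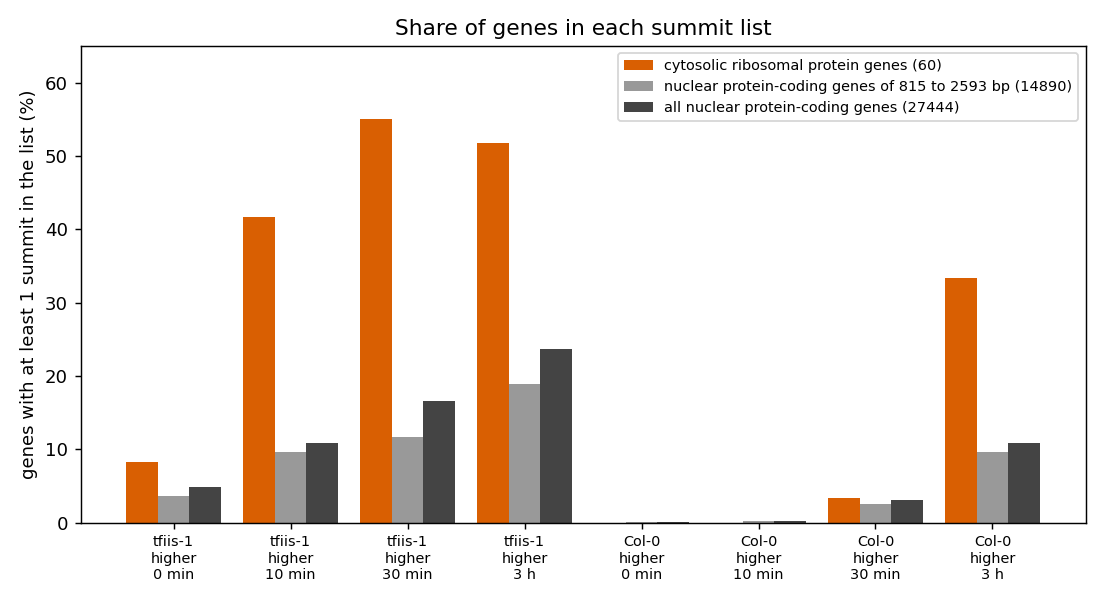
The y axis gives the percentage of genes with at least 1 summit in each of 8 lists (x axis, by direction and time of heat shock), for the 60 ribosomal protein genes (orange), genes of the same length range (light grey) and all nuclear protein-coding genes (dark grey). The orange bars reach 41.7%, 55.0% and 51.7% in the tfiis-1-higher lists of 10 min, 30 min and 3 h and 33.3% in the Col-0-higher list of 3 h, and lie near the grey bars in the Col-0-higher list of 30 min.

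Over all times, 44 of the 60 genes were tfiis-1-higher at least once (73.3%, against 29.8% of all nuclear protein-coding genes and 25.6% of those in the length range). Of them 3 were tfiis-1-higher at all 4 times, 12 at 3 times, 17 at 2 and 12 at 1. Being tfiis-1-higher at 3 or 4 times was seen in 25% of ribosomal protein genes, against 7.18% of all genes and 4.82% of those in the length range. Col-0-higher summits were found in 21 genes at any time (35.0%, against 12.2% of all genes and 10.7% of those in the length range). Of the 21 genes, 20 were also tfiis-1-higher at some time (33.3% of the 60, against 8.75% of all genes and 6.70% of those in the length range). AT5G15200 was the 1 gene with a Col-0-higher summit alone. The 142 summits of the 45 genes were mostly single: in the tfiis-1-higher lists of 10 min, 30 min and 3 h, 4, 10 and 10 genes had 2 or more summits, and in the Col-0-higher lists none did. These were 16%, 30.3% and 32.3% of the ribosomal protein genes in each list, against 13.4%, 25.2% and 36.3% of listed genes in the length range, so the shares were near that background.

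**Figure D2:**
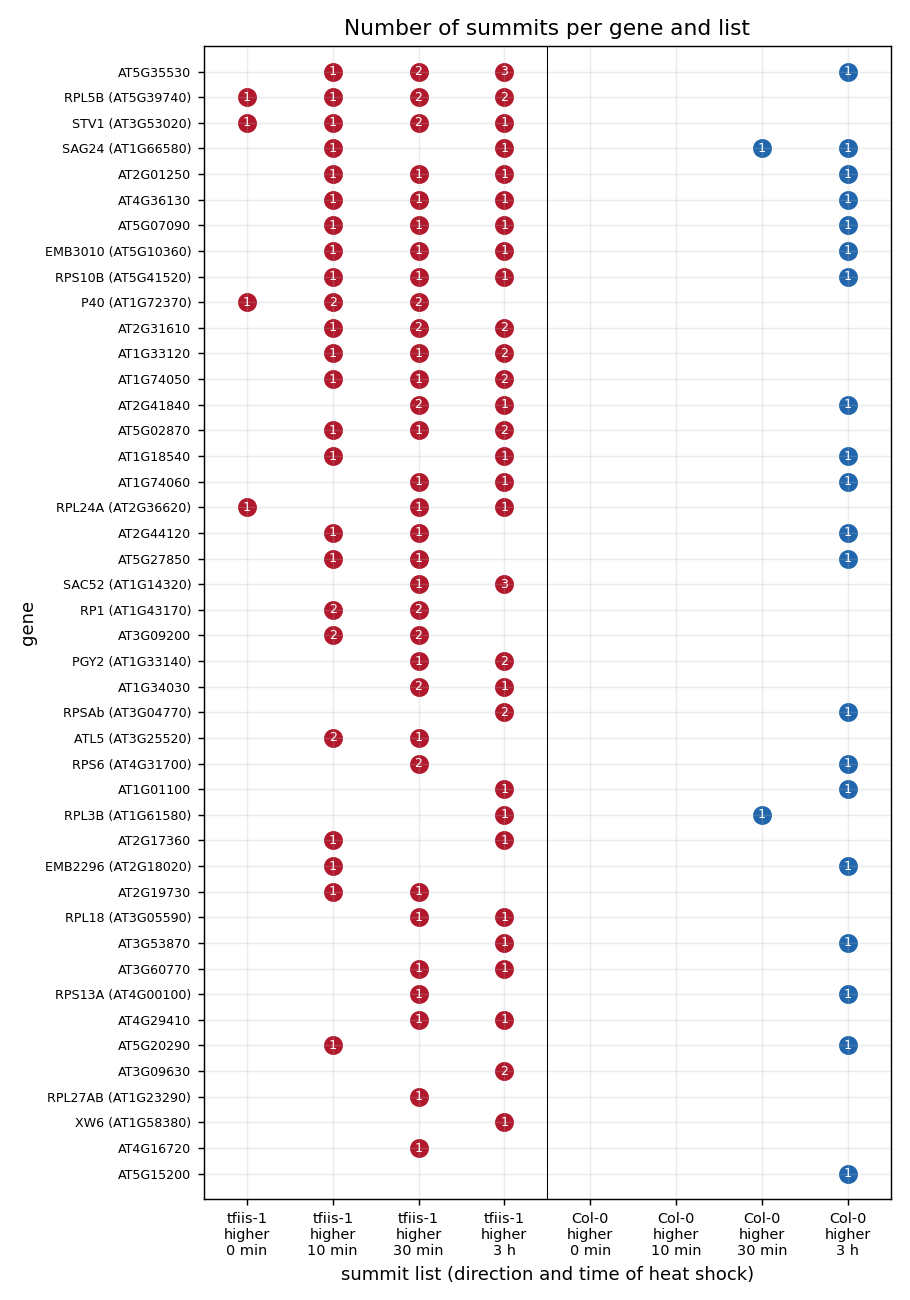
Each row is 1 of 44 listed ribosomal protein genes, each column (x axis) 1 of the 8 lists, and the number in a dot is the number of summits; red is tfiis-1-higher and blue Col-0-higher. AT5G35530 heads the plot with 7 summits in 4 lists, and the 0 min and 10 min columns of the Col-0-higher side are empty.

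The place of the summits in the gene moved with time. Positions are given on a scale that is 0 at the start of the gene and 1 at its end, read along the gene's own strand. The 5 tfiis-1-higher summits of 0 min lay close together, between 0.33 and 0.40, while the middle 50% of summits in genes of the same length range ran from 0.35 to 0.60. At 10 min the median of the 29 summits was 0.86 (0.82 in the length range), with 9 summits in the last 10% of the gene. The plot of positions shows them in 2 bands, at 0.33 to 0.48 and at 0.71 or beyond, with 1 summit of ATL5 at 0.14. These bands were seen after the values and were not tested.

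At 30 min the median of 43 summits was 0.57 (0.58 in the length range), and 2 lay in the last 10% of the gene. At 3 h the median of 43 summits was 0.34 (0.45 in the length range). In that list 6 summits (14.0%) lay in the first 10% of the gene, where there were 0 at each earlier time, and 0 lay in the last 10%. In genes of the length range the first 10% held 8.01% of the 3 h summits. The 20 Col-0-higher summits of 3 h had a median of 0.97 (0.93 in the length range), and 15 of them (75%, against 60.1% in the length range) lay in the last 10%, at a median distance of 59 bp from the gene end over all 20. The tfiis-1-higher summits of ribosomal protein genes were thus mid-gene before heat, mostly near the 3' end at 10 min, and spread toward the 5' end by 3 h, when the Col-0-higher summits were at the 3' end. Over all genes in the lists the tfiis-1-higher medians were 0.40, 0.78, 0.51 and 0.40 from 0 min to 3 h, and the Col-0-higher median of 3 h was 0.95, so the lists as a whole had the same shift toward the 3' end at 10 min and back.

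**Figure D3:**
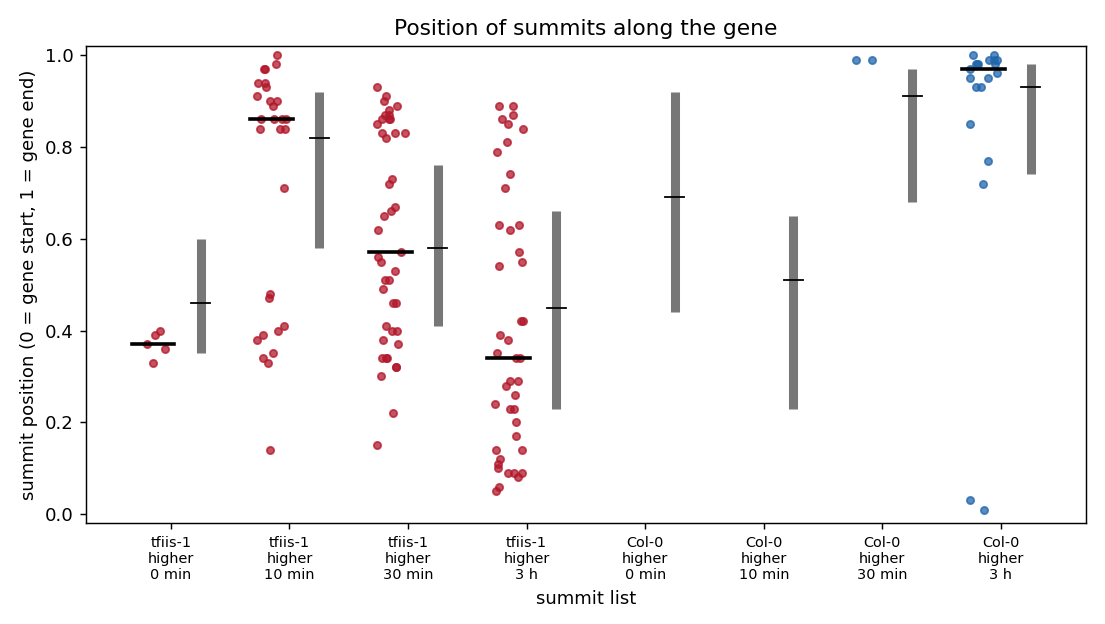
The y axis is the position of each summit along its gene (0 start, 1 end) and the x axis the list; dots are summits of ribosomal protein genes (red tfiis-1-higher, blue Col-0-higher), the black bar is their median in lists with at least 5, and the grey bar spans the quartiles, with the median, of genes of the same length range. The medians are 0.37, 0.86, 0.57 and 0.34 in the tfiis-1-higher lists and 0.97 in the Col-0-higher list of 3 h.

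Genes of the large subunit with names in the table were listed in 10 of 13 cases, all 10 tfiis-1-higher and 2 of them also Col-0-higher. Of all nuclear protein-coding genes, 33.2% were in any list, 29.8% in a tfiis-1-higher and 12.2% in a Col-0-higher one. RPL5B (AT5G39740) encodes a form of RPL5, the protein that binds the smallest ribosomal RNA of the large subunit, and its loss lowers leaf cell number. It was tfiis-1-higher at all 4 times, at position 0.36 at 0 min, 0.41 at 10 min, 0.46 and 0.93 at 30 min, and 0.10 and 0.28 at 3 h. Its mid-gene summit shifted downstream by 30 min, and at 3 h both summits lay upstream of the earlier ones. The 0 min summit was at TAIR10 chromosome 5, 15904090. The sister gene ATL5 (AT3G25520, RPL5A) had summits at 0.14 and 0.86 at 10 min and at 0.46 at 30 min, and none at 0 min or 3 h.

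STV1 (AT3G53020, SHORT VALVE1, RPL24B) encodes a form of RPL24 that helps ribosomes reinitiate after upstream reading frames and is needed for the normal gynoecium. It was tfiis-1-higher at all 4 times at nearly the same site: 0.33, 0.35, 0.32 and 0.29 from 0 min to 3 h, all within 80 bp around chromosome 3, 19661517. A further summit at 0.82 was listed at 30 min. The sister gene RPL24A (AT2G36620) was listed at 0 min, 30 min and 3 h, at 0.40, 0.55 and 0.71. Its summit was further downstream at each later time, unlike the fixed site of STV1.

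In the RPL10 family, whose yeast counterpart helps to join the subunits, SAC52 (AT1G14320, RPL10A) is known from suppressing the dwarf mutant acaulis. It had 1 tfiis-1-higher summit at 0.91 at 30 min and 3 at 3 h, at 0.11, 0.35 and 0.79. SAG24 (AT1G66580, RPL10C; chromosome 1, 24839090 to 24840806, plus strand), named as a senescence-associated gene, was tfiis-1-higher at 0.48 at 10 min and 0.63 at 3 h. It was also Col-0-higher at 0.99 at 30 min and 0.93 at 3 h, and was the 1 ribosomal protein gene that was Col-0-higher at 2 times. RPL10B (AT1G26910) was in no list.

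In the RPL3 family, whose yeast counterpart reaches toward the peptidyl transferase centre, the paralogs were in no list together. RP1 (AT1G43170, RPL3A) was tfiis-1-higher at 10 min (0.34 and 0.94) and at 30 min (0.34 and 0.72), with the 0.34 summits 1 bp apart. RPL3B (AT1G61580; chromosome 1, 22720560 to 22723152, minus strand) was tfiis-1-higher at 3 h at 0.14 and Col-0-higher at 30 min at 0.99. For 10 min and 30 min the Col-0-higher lists carry the authors' score per summit, on a scale that is not stated. The 30 min summit of RPL3B scored 5.31 and that of SAG24 7.60, where the median of that list was 6.78. Both lay 31 bp or less from the gene end, in the middle of the ranking (575th and 394th of 896 summits).

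Of the remaining named large-subunit genes, RPL18 (AT3G05590) was tfiis-1-higher at 0.86 at 30 min and at 0.17 at 3 h. RPL27AB (AT1G23290), at 815 bp the shortest of the 60, had 1 tfiis-1-higher summit at 30 min, which also lay inside the neighbouring gene AT1G23300. RPL23AA (AT2G39460) and RPL23AB (AT3G55280), whose yeast counterpart sits at the exit of the nascent peptide, were in no list.

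Genes of the small subunit with names in the table were listed in 7 of 10 cases, all 7 tfiis-1-higher and 5 of them also Col-0-higher. The shares of all nuclear protein-coding genes were 33.2%, 29.8% and 12.2%. The subunits cannot be compared by these counts, since 37 of the 60 genes, 14 of them Col-0-higher, have no subunit name. P40 (AT1G72370, RPSAA), the homologue of the animal laminin receptor precursor in the small subunit, showed a fixed mid-gene site, as STV1 did. Its tfiis-1-higher summits lay at 0.39 at 0 min, 0.38 at 10 min and 0.38 at 30 min, within 34 bp. A 3' summit at 0.90 was listed at 10 min and, 5 bp away, at 30 min, and P40 was in no list of 3 h. RPSAb (AT3G04770) was listed only at 3 h. It was tfiis-1-higher at 0.63 and 0.89 and Col-0-higher at 0.03, and this last summit also lay in the neighbouring gene AT3G04780.

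RPS6 is the small-subunit protein phosphorylated by S6 kinase downstream of TOR. EMB3010 (AT5G10360, RPS6B), an embryo-defective gene, was tfiis-1-higher at 0.33 at 10 min, 0.32 at 30 min and 0.06 at 3 h, and Col-0-higher at 0.99 at 3 h. RPS6 (AT4G31700, RPS6A) was tfiis-1-higher at 30 min, at 0.51 and 0.85, and Col-0-higher at 3 h, 6 bp from the gene end. Both paralogs thus had a Col-0-higher summit at the very end of the gene at 3 h. RPS10B (AT5G41520) was tfiis-1-higher at 0.86 at 10 min, 0.15 at 30 min and 0.24 at 3 h, and Col-0-higher at 0.98 at 3 h. RPS13A (AT4G00100, POINTED FIRST LEAF 2), named for its leaf shape mutant, was tfiis-1-higher at 0.87 at 30 min and Col-0-higher at 3 h only 10 bp from the gene start. PFL (AT1G22780, RPS18A), which gives a similar leaf shape, and RPS18C (AT4G09800) were in no list.

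The 8 families described here were put together from the names in the table. Every named member was in a list in 5, some named members were in 1 (RPL10), and none was in 2 (RPL23A and RPS18). Genes known by identifier only were not assigned to a family, so a family may have further members, listed or not, among them. The sources used here do not say how reads shared by near-identical copies were treated, so a call on 1 copy is uncertain and copies may not be independent. The 15 genes in no list had a median length of 1566 bp, against 1787 bp for the 45 listed genes, and ran from 959 to 2394 bp. Beside RPL10B, RPL23AA, RPL23AB, PFL and RPS18C they included AT1G70600, AT2G40010, AT3G11250, AT3G13580, AT4G10450, AT4G17390, AT5G39850, AT5G58420 and AT5G59240.

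Among genes known here by identifier or symbol only, AT5G35530 had the most summits. It was tfiis-1-higher at 0.90 at 10 min, at 0.40 and 0.87 at 30 min, and at 0.05, 0.42 and 0.89 at 3 h, and Col-0-higher at 0.99 at 3 h. Each later list kept the earlier sites to within 62 bp and added 1 further upstream. AT2G31610 kept its 3' site within 44 bp (0.89, 0.88 and 0.87 at 10 min, 30 min and 3 h), with an upstream summit at 0.49 at 30 min and at 0.09 at 3 h, and had no Col-0-higher summit.

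A fixed 3' site was seen in AT1G33120, at 0.84, 0.83 and 0.84 at 10 min, 30 min and 3 h, within 17 bp. A fixed site at 0.39, 0.34 and 0.39 was seen in AT5G07090 at the same times, within 88 bp, with a Col-0-higher summit at 0.98 at 3 h. These genes, STV1, P40, AT5G35530 and AT2G31610 were among 7 of the 15 genes tfiis-1-higher at 3 or 4 times that had a summit within 100 bp at each of those times (46.7%). In the length range 169 of 717 such genes did (23.6%). The distance of 100 bp was chosen after the lists were seen. Without a cutoff, the median of the smallest span over the times was 244 bp in the 15 genes, against 433 bp in the length range. This was not tested, and lists of different times come from different libraries.

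AT5G02870 was tfiis-1-higher at 0.93, 0.83 and 0.81 at 10 min, 30 min and 3 h, with a further summit at 0.38 at 3 h. AT1G74050 was tfiis-1-higher at 0.98, 0.86 and 0.85 at those times, with a further summit at 0.34 at 3 h. In both genes the 3' summit lay a little further upstream after 10 min. The adjacent gene AT1G74060 was tfiis-1-higher at 0.57 at 30 min and at 3 h, and Col-0-higher at 0.77 at 3 h, inside AT1G74055 as well. PGY2 (AT1G33140, PIGGYBACK2), known from leaf polarity, was tfiis-1-higher at 0.73 at 30 min and at 0.09 and 0.74 at 3 h.

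A further group had tfiis-1-higher summits in the body of the gene and a Col-0-higher summit at 3 h. AT4G36130 was tfiis-1-higher at 0.84, 0.83 and 0.29 at 10 min, 30 min and 3 h, and Col-0-higher 2 bp from its end, and all but the 0.29 summit also lay in AT4G36140. AT2G41840 was tfiis-1-higher at 0.30 and 0.66 at 30 min and 0.62 at 3 h, and Col-0-higher at 0.97 at 3 h. AT2G01250 was tfiis-1-higher at 0.94 at 10 min, 0.22 at 30 min and 0.20 at 3 h, and Col-0-higher at 0.96 at 3 h. These genes had their Col-0-higher summit downstream of every tfiis-1-higher summit of 30 min and 3 h. AT1G01100 was listed at 3 h in both directions, tfiis-1-higher at 0.12 and Col-0-higher at 0.95. AT3G53870 was tfiis-1-higher at 0.14 and Col-0-higher at 0.99, also at 3 h.

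AT1G18540 was tfiis-1-higher at 0.71 at 10 min and 0.23 at 3 h, and Col-0-higher at 0.72 at 3 h. AT5G27850 was tfiis-1-higher at 0.86 at 10 min and 0.67 at 30 min, and Col-0-higher at 0.85 at 3 h. AT2G44120 was tfiis-1-higher at 0.97 at 10 min and 0.56 at 30 min, and Col-0-higher at 0.95 at 3 h. In all 3 the Col-0-higher summit of 3 h lay close to the tfiis-1-higher summit of 10 min. EMB2296 (AT2G18020), an embryo-defective gene, and AT5G20290 had these 2 kinds of summit alone, at 0.86 and 0.93 in EMB2296 and at 0.84 and 0.98 in AT5G20290.

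The remaining genes were in 1 or 2 lists, and apart from AT5G15200, Col-0-higher at 0.98 at 3 h, all were tfiis-1-higher. AT3G09200 had summits at 0.47 and 0.97 at 10 min and at 0.41 and 0.89 at 30 min. AT2G19730 had 1 at 0.91 at 10 min and 1 at 0.65 at 30 min, and AT2G17360 had 1 at the gene end (4 bp from it) at 10 min and 1 at 0.23 at 3 h. In each of these 3 genes the most downstream summit was that of 10 min. AT1G34030 had summits at 0.34 and 0.86 at 30 min and 0.26 at 3 h, AT3G60770 at 0.53 and 0.09 at these times, and AT4G29410 at 0.51 and 0.55. AT3G09630 was listed at 3 h at 0.08 and 0.42, XW6 (AT1G58380) at 3 h at 0.86, and AT4G16720 at 30 min at 0.40.

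**Figure D4:**
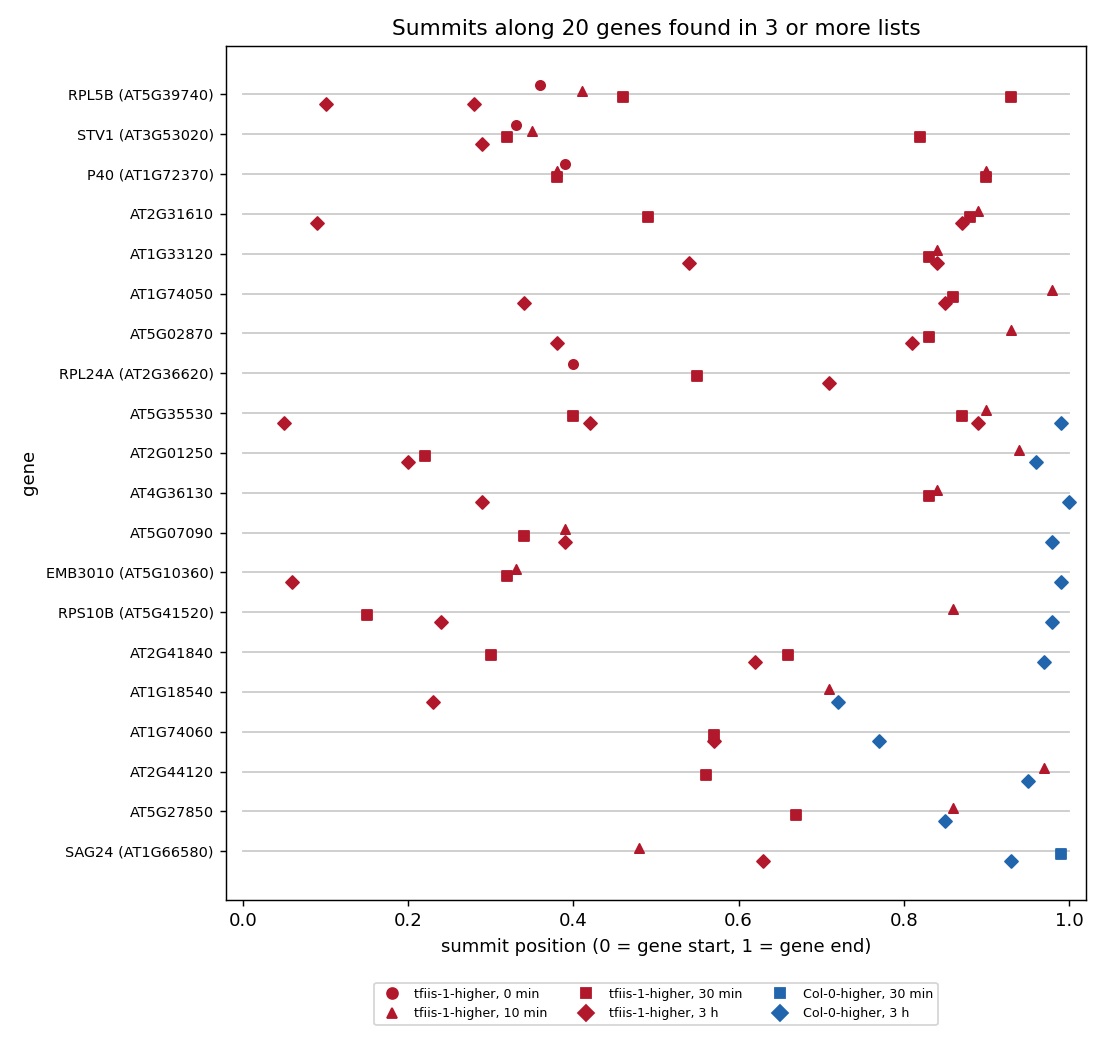
Each line is 1 of 20 ribosomal protein genes found in 3 or more lists, drawn from gene start (0) to gene end (1) on the x axis; symbols are summits, with red for tfiis-1-higher, blue for Col-0-higher and the shape for the time. STV1 and P40 hold a summit near 0.3 to 0.4 at 4 and 3 times, and all the blue symbols lie at 0.72 or beyond.

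At 3 h the lists of both directions come from the same libraries. Of the 60 genes, 31 were tfiis-1-higher and 20 Col-0-higher at that time, and 13 were in both lists. This is 41.9% of the 31 and 65% of the 20, against 19.3% and 38.0% in the length range. The Col-0-higher list itself held 33.3% of the 60 genes and the tfiis-1-higher list 51.7%, against 9.59% and 18.9% in the length range. A larger shared part is thus partly given by these larger shares. In 12 of the 13 (92.3%) every tfiis-1-higher summit lay upstream of the Col-0-higher one, as in EMB3010 (0.06 and 0.99), RPS10B (0.24 and 0.98) and AT2G01250 (0.20 and 0.96). The exception was RPSAb, with its Col-0-higher summit at 0.03. In genes of the length range that were in both lists, 530 of 543 (97.6%) had this order, a share no lower than in the ribosomal protein genes. It follows the positions of all summits in these lists, whose medians were 0.40 among tfiis-1-higher summits and 0.95 among Col-0-higher ones.

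The tfiis-1-higher genes of 10 min and the Col-0-higher genes of 3 h, from different libraries, shared 12 ribosomal protein genes, which is 48.0% of the 25 and 60% of the 20. In genes of the length range the shared part was 41.9% and 42.4%. The 3 h list itself held 33.3% of the 60 genes and the 10 min list 41.7%, against 9.59% and 9.69% in the length range. The nearest summits lay a median of 203 bp apart (189 bp in the length range), and in 9 of the 12 within 500 bp (75%, against 80.8% in the length range). In 5 genes (41.7%, against 32.7% in the length range) they lay within 100 bp: 18 bp in AT1G18540, 19 bp in AT5G27850, 28 bp in AT2G01250, 53 bp in AT2G44120 and 94 bp in EMB2296. The AT1G18540 summits, at chromosome 1, 6377206 and 6377188, also lay in AT1G18530. In these 5 genes the site that was tfiis-1-higher at 10 min was Col-0-higher at 3 h. In EMB3010 and AT5G07090 the summits were over 1000 bp apart (1219 bp and 1058 bp), since the 10 min summit lay mid-gene.

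The tfiis-1-higher lists of successive times also shared ribosomal protein genes. The lists of 10 min, 30 min and 3 h themselves held 41.7%, 55.0% and 51.7% of the 60 genes. In the length range these shares were 9.69%, 11.7% and 18.9%, so larger shared parts are partly given by the larger shares. All 5 genes of 0 min were tfiis-1-higher again at 30 min, and 4 of them at 10 min and 4 at 3 h. In the length range 68.4% of the genes of 0 min were tfiis-1-higher again at 30 min, 51.7% at 10 min and 72.1% at 3 h, so with 5 genes the 3 h count was near the background. The lists of 10 min and 30 min shared 20 genes (80.0% of 25 and 60.6% of 33, against 50.9% and 42.3% in the length range). The lists of 30 min and 3 h shared 22 (66.7% of 33 and 71.0% of 31, against 75.4% and 46.5% in the length range). The nearest summits lay a median of 96 bp apart in the first of these pairs (151.5 bp in the length range) and 79.5 bp in the second (43.0 bp in the length range).

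Other genes of protein synthesis were counted in lists made by function. Of 35 genes listed as translation factors, 6, 17, 25 and 28 were tfiis-1-higher from 0 min to 3 h, and 16 were Col-0-higher at 3 h. That list also holds the kinase genes PK1, S6K2 and GCN2, which are not translation factors themselves. Of 37 ribosome biogenesis genes, 2, 6, 17 and 23 were tfiis-1-higher, and 9 were Col-0-higher at 3 h. The share at 10 min was thus 48.6% for translation factors and 16.2% for biogenesis genes, against 41.7% for the ribosomal protein genes and 10.9% for all genes. At 3 h the order was another: 80.0% of translation factor genes and 62.2% of biogenesis genes were tfiis-1-higher, against 51.7% of the ribosomal protein genes and 23.7% of all genes. In the Col-0-higher list of 3 h the shares were 45.7% and 24.3%, against 33.3% of the ribosomal protein genes and 10.8% of all genes. These 2 groups are of longer genes, with medians of 2833 and 2944 bp.

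Of 25 further genes named in the table as ribosomal proteins with no organelle in the name, some of which may be organellar, 7 were tfiis-1-higher at 10 min, 10 at 30 min and 4 at 3 h, and 11 were Col-0-higher at 3 h. Of 19 ribosomal protein genes with an organelle in the name, 3, 7 and 6 were tfiis-1-higher at those times and 2 were Col-0-higher at 3 h. The tfiis-1-higher shares were thus 28.0%, 40% and 16% in the first of these groups and 15.8%, 36.8% and 31.6% in the second. At 3 h the share of the first group was below the 23.7% of all genes and the 51.7% of the 60 ribosomal protein genes. The Col-0-higher shares of 3 h were 44.0% and 10.5%, and the second is near the 10.8% of all genes. The split rests on names alone. These shares therefore do not compare cytosolic with organellar ribosomal protein genes, and the second group need not stand for organellar ones.

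Some genes of these groups had sites like those of the 60, while others differed in part. EIF2 BETA (AT5G20920), a subunit of the factor that brings the initiator tRNA, was tfiis-1-higher at 0.22, 0.22, 0.21 and 0.21 from 0 min to 3 h, with a further summit at 0.93 at 10 min and a Col-0-higher one at 0.99 at 3 h. RPL21C (AT1G35680), of the chloroplast ribosome, was tfiis-1-higher at 0.33, 0.49, 0.35 and 0.34. LOS1 (AT1G56070), an elongation factor of translation, was tfiis-1-higher at 10 min, 30 min and 3 h and Col-0-higher at 0.95 at 3 h. NUC-L1 (AT1G48920), a nucleolin, was tfiis-1-higher at 10 min and 30 min and Col-0-higher at its very end at 30 min and at 0.14 at 3 h. RPL34 (AT1G69620) was tfiis-1-higher at 0.36 and 0.99 at 10 min and Col-0-higher at 0.21 and 0.98 at 3 h. The Col-0-higher summits of NUC-L1 at 0.14 and of RPL34 at 0.21 were unlike those of the 60 genes. In the 60 genes no Col-0-higher summit lay between 0.03 and 0.72.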

How the data were processed

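The authors deposited 8 summit lists without headers. Bowtie2, FastQC, MACS3, deepTools and build TAIR10 are named, without versions, in the submitters' processing notes; the sources used here do not give the calling threshold, the scaling between genotypes, the pooling of replicates or the handling of multi-mapped reads. The score that 2 lists hold is the authors' deposited value per summit, of unstated scale.

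Repeated lines were counted once (29485 summits). A summit in 2 genes counted in each, which concerned 8 of the 142 summits in ribosomal protein genes. Gene starts, ends and symbols came from the RefSeq table of TAIR10.1, after 936 of 936 gene intervals in the lists were found equal to it; every summit lay inside its gene. Computing positions was tested on simulated data. Shared sites were summits within 500 bp.

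No test was run. The 60 genes and the other gene lists were chosen with earlier results of these data known. Genes described in full were those in 3 or more lists, then those in both directions, then those with 2 or more summits in a list, up to 30, with their paralogs; the other genes follow, all described with their values known; 2 of the 60 are in the counts over the 60 genes, but they are not reported here by name and are left out of the count of families and of the figures drawn by gene. Promoter and exon sequences were not used here. Python 3.11.15, numpy 2.4.6, pandas 2.3.3 and matplotlib 3.10.9 were used.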

Additional observations from a re-analysis of the deposited data

How the results depend on the processing

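Of 81 values recomputed under other settings, 70 stayed within 1.5 times of a count or share, or within 0.05 of a median position. Part of these could hardly move, so the tally says little about robustness. A count of 0 stays 0 under a stricter filter, and only 2 of the 60 genes were shorter than the limit of 1000 bp. Keeping the summits at or above the list's median score left 1 of the 2 Col-0-higher genes of 30 min (RPL3B dropped out). With genes in at least 1 list as the background, the background shares were 14.8%, 32.8%, 49.9% and 71.3% in the tfiis-1-higher lists from 0 min to 3 h, and 0.340%, 0.757%, 9.51% and 32.4% in the Col-0-higher lists, by the construction of that background. Taking 1 position per gene moved the tfiis-1-higher median of 30 min to 0.62, against 0.57. With summits within 100 bp, a distance chosen after the lists were seen, 5 genes in place of 9 had a 10 min tfiis-1-higher summit beside a 3 h Col-0-higher one. No paired analysis was possible because the lists hold no value per library, and for the same reason leaving out a replicate was not run. The intended count of promoter motifs was not run. Depth is unknown, so what it limits could not be computed.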
